A study of Mus musculus with 6 samples.

Results

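The 10 genes described here encode regulators of actin filaments, of the links between actin and the cell membrane, and of microtubules: Tuba4a, Dynll1, Clip1, Pfn2, Twf2, Carmil1 (older name Lrrc16a), Baiap2, Clic5, Tns1 and Fblim1. Their RNA was measured on Affymetrix mouse genome arrays in ventricles of newborn mice at postnatal day 1 (P1), with 3 wild-type arrays (genotype aMHC-Cre; 125b1+/+) and 3 arrays from cardiac-specific miR-125b-1 knockout mice (aMHC-Cre; 125b1f/f). Both groups carried Cre, so an effect of Cre alone is shared by them, and the promoter that drives it (aMHC, Myh6) acts in cardiomyocytes, while the ventricles also hold other cells. The sources do not say whether an array holds 1 pup or several pooled pups. The paper describes 3 independent experiments without saying what an experiment was. How much of a spread between arrays is technical is therefore not known. No probe set of the targeted locus was at hand to check the genotypes on these arrays. By qPCR in neonatal ventricles, the paper reports an almost complete loss of the primary miR-125b-1 transcript and a partial loss of mature miR-125b. Over the 271 probe sets described next, arrays correlated with r of 0.991 to 0.994 within a genotype and 0.600 to 0.638 between genotypes. Each of these probe sets was selected as at least 2-fold apart, so a lower r between genotypes was built in. The paper also names a cutoff on P. If that was applied to this table, it favoured probe sets with a small spread within a genotype and with groups that do not overlap. Neither range of r is a measure of the effect of the genotype on all genes.

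The members were taken by gene name from the deposited table, and that table was itself selected on the comparison of the same 6 arrays. It holds 271 probe sets, which stand for 215 named genes, and 15 of its probe sets belong to the 10 genes. A probe set is a group of short probes, read as 1 value, for 1 or more transcripts, and its intensity is given in linear units without a stated scaling. Folds between the genotypes are taken from the difference of mean log2 intensities, so they can differ slightly from the ratio of the means printed below. The smallest difference in the table was 1.00 on the log2 scale, that is 2-fold, and probe sets under it are not analysed here. The closest member to this limit was Fblim1, at 2.06-fold. Every difference between the genotypes is therefore a description, given without a test. Standard errors come from limma fitted to the whole table, which draws each of them towards a spread shared by all probe sets. Over the 15 member probe sets they ran only from 0.11 to 0.13, while the log2 SD within groups ran from 0.10 to 0.25. A probe set with a wide spread, such as the brightest of Clic5, therefore has a standard error smaller than its own arrays would give. All of them may also be too small, because the table was selected on these values.

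Cardiomyocytes contract through sarcomeres, but their shape, the anchoring of the sarcomeres to the membrane and the transport of organelles depend on cytoplasmic actin and on microtubules. Actin filaments grow at their barbed ends, where profilins deliver monomers and capping proteins stop growth. Microtubules are built from dimers of α- and β-tubulin, grow at plus ends that bind tracking proteins, and serve as tracks for the motor dynein. Adaptor proteins couple actin to integrins at the sites where the cell holds the matrix.

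The deleted gene encodes a microRNA whose guide strand has a second genomic source, so the sequences are shown to make plain what the deletion removes. Positions are on the plus strand of GRCm38.p6, sequences are from RefSeq, and capitals mark the seed (bases 2 to 8), by which a microRNA recognises its targets. The 5p strand of Mir125b-1 lies at chr9:41581940-41581961 and that of Mir125b-2 at chr16:77646279-77646300. Both loci give the same 22 bases, while their 3p strands differ.
miR-125b-5p from Mir125b-1: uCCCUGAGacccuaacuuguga
miR-125b-5p from Mir125b-2: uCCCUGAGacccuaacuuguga
miR-125b-1-3p: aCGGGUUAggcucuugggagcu
miR-125b-2-3p: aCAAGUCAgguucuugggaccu
No member of the list was searched for seed sites, because transcripts are not among the sequences used here.

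In the knockout ventricles 6 of the 10 genes were higher and 4 were lower. Carmil1, Baiap2, Clic5, Twf2, Clip1 and Tns1 were higher, and Tuba4a, Pfn2, Dynll1 and Fblim1 were lower. The selection fixes that all 10 are at least 2-fold apart, as 100% of the 215 genes are. Of the 215 genes 66.5% were higher and 33.5% lower, and nothing is read from the members' count beside these shares. In all 10 genes every knockout array lay on one side of every wild-type array, which also held for 100% of the 215 genes. By function the directions were mixed. Among the genes put under actin regulators in lists written by hand (Pfn2, Twf2, Carmil1, Baiap2 and Clic5) only Pfn2 was lower. Of these, Baiap2 and Clic5 could also be put with the links between actin and the membrane. Among the microtubule genes Tuba4a and Dynll1 were lower and Clip1 was higher, and of the adhesion adaptors Tns1 was higher and Fblim1 lower. The median of the higher members was 2.86-fold, against 2.49-fold over all 143 higher genes, and that of the lower members was 2.18-fold, against 2.46-fold over all 72 lower genes.

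**Figure D1:**
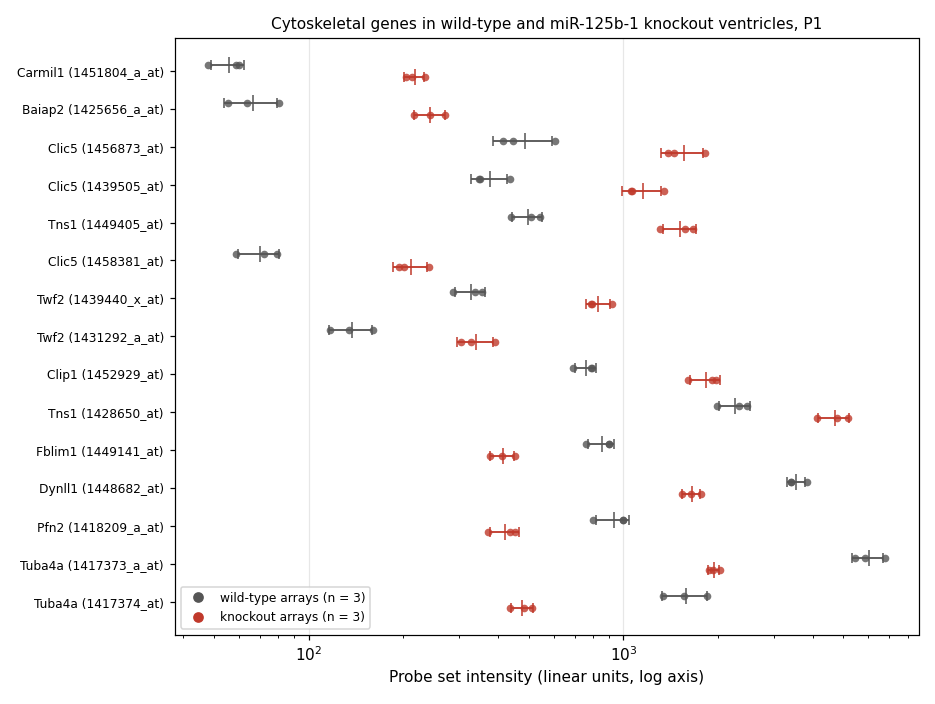
Intensity (x axis, linear units on a log axis) of the 15 probe sets of the 10 genes (rows, ordered by their difference) on the 3 wild-type arrays (grey) and the 3 knockout arrays (red), with vertical ticks at the group means and bars for the SD. The groups are apart in every row, with 10 probe sets higher and 5 lower in the knockout, and levels of different rows are not comparable.

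Tuba4a, an α-tubulin that is incorporated into microtubules, showed the largest difference among the lower members. Its brighter probe set (1417373_a_at) gave intensities of 5438, 6763 and 5857 on the wild-type arrays and of 2025, 1865 and 1927 on the knockout arrays. The knockout arrays lay close together, with a coefficient of variation of 4.17% against 11.2% in the wild-type. The mean was 6019 ± 677 in the wild-type and 1939 ± 80.9 in the knockout (SD, n = 3 each), and this probe set was 3.09-fold lower. Its log2 difference of -1.63 (standard error 0.12) was the 17th largest of the 72 lower genes. The second probe set (1417374_at) was read at 1339, 1850 and 1560 in the wild-type and at 483, 436 and 511 in the knockout, a 3.30-fold difference. The highest wild-type value came from the same array on both probe sets.

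Dynll1 encodes the LC8 light chain, a small dimer that is part of cytoplasmic dynein and also binds many proteins outside the motor. Its probe set (1448682_at) was at 3406, 3818 and 3415 in the wild-type and at 1644, 1760 and 1539 in the knockout. Values within each group were tight, and the nearest arrays of the 2 groups were still 1.94-fold apart. The mean went from 3546 ± 236 to 1648 ± 111 (SD, n = 3 each), 2.15-fold lower, with a log2 difference of -1.11 (standard error 0.11). This placed it 62nd of the 72 lower genes, near the limit of the selection.

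Clip1 encodes CLIP-170, which binds the growing plus ends of microtubules and was the microtubule gene that was higher. Its intensities (1452929_at) were 791, 692 and 794 in the wild-type and 1919, 1962 and 1601 in the knockout. The lowest knockout array was 2.02-fold above the highest wild-type array. The means were 759 ± 58.2 and 1827 ± 197 (SD, n = 3 each). The gene was 2.40-fold higher, or 1.26 on the log2 scale (standard error 0.12). The gene stood 79th of the 143 higher genes.

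Among the actin genes, Pfn2 encodes a profilin, a protein that binds actin monomers and hands them to growing filaments. It was measured at 800, 998 and 995 in the wild-type and at 437, 372 and 454 in the knockout (1418209_a_at). The lowest wild-type array was 1.76-fold above the highest knockout array. The mean went from 931 ± 114 to 421 ± 43.4 (SD, n = 3 each), 2.21-fold lower, a log2 difference of -1.14 (standard error 0.12). It ranked 60th of the 72 lower genes.

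Twf2 encodes a twinfilin, which also binds actin monomers and caps barbed ends, and it was higher. Its brighter probe set (1439440_x_at) gave 288, 339 and 356 in the wild-type and 794, 789 and 917 in the knockout. This probe set ends in _x_at, which marks probes that can bind other transcripts. The means were 328 ± 35.3 and 833 ± 72.7 (SD, n = 3 each), and this probe set was 2.55-fold higher (1.35 on the log2 scale, standard error 0.12). The dimmer probe set without that mark (1431292_a_at) gave 117, 135 and 160 against 304, 328 and 390, which is 2.48-fold.

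Carmil1 encodes a large leucine-rich repeat protein that binds capping protein and loosens it from barbed ends. Its probe set (1451804_a_at) was dim in the wild-type, at 58.9, 48.1 and 60.3, and reached 213, 204 and 235 in the knockout. The lowest knockout array exceeded the highest wild-type array by 3.39-fold as deposited, by 2.26-fold with arrays centred on their median and by 2.42-fold after quantile normalization. The mean went from 55.8 ± 6.70 to 217 ± 15.99 (SD, n = 3 each), and the gene was 3.91-fold higher. With 1.97 on the log2 scale (standard error 0.12) it had the largest difference of the 10 genes as deposited and was 17th of the 143 higher genes. With centred arrays and after quantile normalization the largest difference was that of Tuba4a (-2.17 and -1.98, against 1.43 and 1.51 for Carmil1). Both scalings move all 10 differences to lower values, which takes Tuba4a away from 0 and Carmil1 towards it. A wild-type level this close to the dimmest values of the table, which start at 30.1, makes the ratio sensitive to background. With 16 units added to every intensity before taking log2, the difference was 1.70.

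Baiap2 encodes IRSp53, an adaptor that curves the membrane and takes part in actin assembly there. The wild-type arrays read 63.7, 55.4 and 80.6 and the knockout arrays 216, 243 and 270 (1425656_a_at). The wild-type values too were near the dimmest of the table and had a coefficient of variation of 19.3%. The means were 66.6 ± 12.9 and 243 ± 27.0 (SD, n = 3 each). The gene was 3.68-fold higher, by 1.88 on the log2 scale (standard error 0.13). It stood 25th of the 143 higher genes.

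Clic5, which belongs to the chloride intracellular channel family and is found with ezrin at cortical actin, was represented by 3 probe sets. The brightest (1456873_at) was at 414, 446 and 606 in the wild-type and at 1388, 1452 and 1823 in the knockout. Within both genotypes the third array was well above the other arrays, and the spread of this probe set was the largest of the 15 in each group as deposited (21.1% and 15.1%). The means were 489 ± 103 and 1554 ± 235 (SD, n = 3 each). This probe set was 3.20-fold higher (1.68 on the log2 scale, standard error 0.13). The other probe sets were 3.06-fold (1439505_at) and 3.03-fold higher (1458381_at). The dimmest of them did not share the order of the arrays, since its highest knockout value, 242, was on the first array.

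Tns1 and Fblim1 act where actin meets the adhesion sites. Tns1 encodes tensin, which binds the tails of integrins and actin filaments. On its brighter probe set (1428650_at) the wild-type arrays read 2477, 2329 and 1986 and the knockout arrays 4123, 4773 and 5167. The means of 2264 ± 252 and 4687 ± 527 (SD, n = 3 each) differed 2.07-fold, by 1.05 on the log2 scale (standard error 0.12), which was 131st of the 143 higher genes. On the other probe set (1449405_at) the values were 542, 510 and 439 against 1567, 1667 and 1311, a 3.05-fold difference. Fblim1 encodes migfilin, an adaptor that binds filamin at adhesions. It was at 898, 761 and 898 in the wild-type and at 378, 411 and 451 in the knockout (1449141_at). The means of 852 ± 78.8 and 413 ± 36.9 (SD, n = 3 each) differed by -1.04 on the log2 scale (standard error 0.12), the 69th of the 72 lower genes. Without 1 of the arrays each of these small differences came just under 2-fold (0.96 for Tns1 without wild-type array 3, 0.98 without knockout array 3, and -0.98 for Fblim1 without knockout array 1, on the log2 scale).

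**Figure D2:**
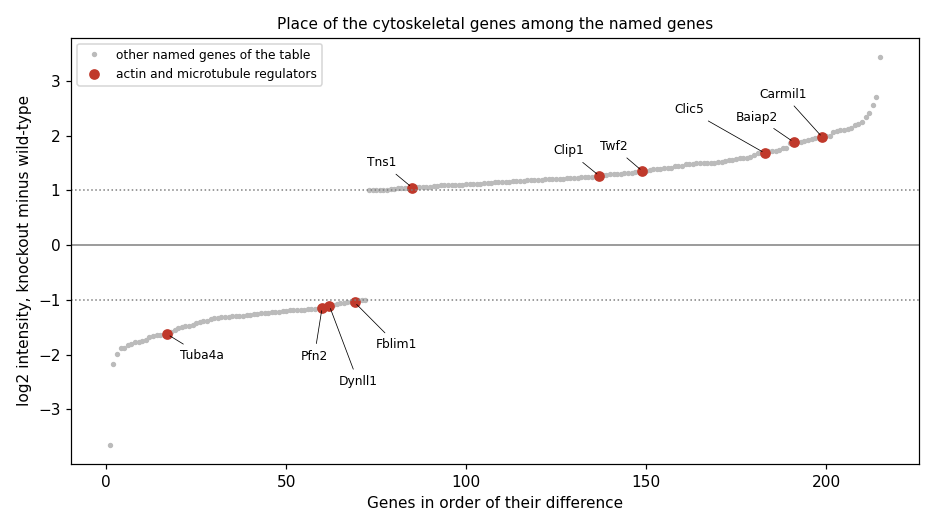
log2 difference, knockout minus wild-type (y axis), of the brightest probe set of each of the 215 named genes, ordered along the x axis, with the 10 cytoskeletal genes in red and dotted lines at 2-fold. No gene lies between the dotted lines because the table was selected, and Pfn2, Dynll1, Fblim1 and Tns1 sit near them while Carmil1 is at 1.97 and Tuba4a at -1.63 as deposited. With centred arrays (-2.17 against 1.43) and after quantile normalization (-1.98 against 1.51) Tuba4a lies further from 0 than Carmil1, as both scalings move all 10 differences to lower values.

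For 4 of the 10 genes the table held several probe sets, which allowed a comparison within each array. A factor common to all probe sets of an array, as in median centring, does not enter such a ratio, but quantile normalization can move it. As deposited, the ratio of the dimmer to the brighter Tns1 probe set was 0.219, 0.219 and 0.221 on the wild-type arrays and 0.380, 0.349 and 0.254 on the knockout arrays. The groups were apart, by 0.56 on the log2 scale. After quantile normalization the ratio was 0.245, 0.227 and 0.234 in the wild-type and 0.323, 0.320 and 0.242 in the knockout, so that the groups overlapped and the shift was 0.31. The Tuba4a ratio went the other way. It was 0.246, 0.274 and 0.266 in the wild-type and 0.239, 0.234 and 0.265 in the knockout as deposited, where the groups overlapped, and after quantile normalization they were apart with a shift of -0.27. The ratios of Twf2 and Clic5 overlapped under both. Their shifts of -0.04 for Twf2 and of -0.07 and -0.08 for the 2 dimmer probe sets of Clic5 turned to 0.12, 0.03 and 0.25 after quantile normalization. Whether probe sets of a gene report different transcripts was not tested. The remaining 6 genes had 1 probe set each in the table, and probe sets that missed the selection are not seen.

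**Figure D3:**
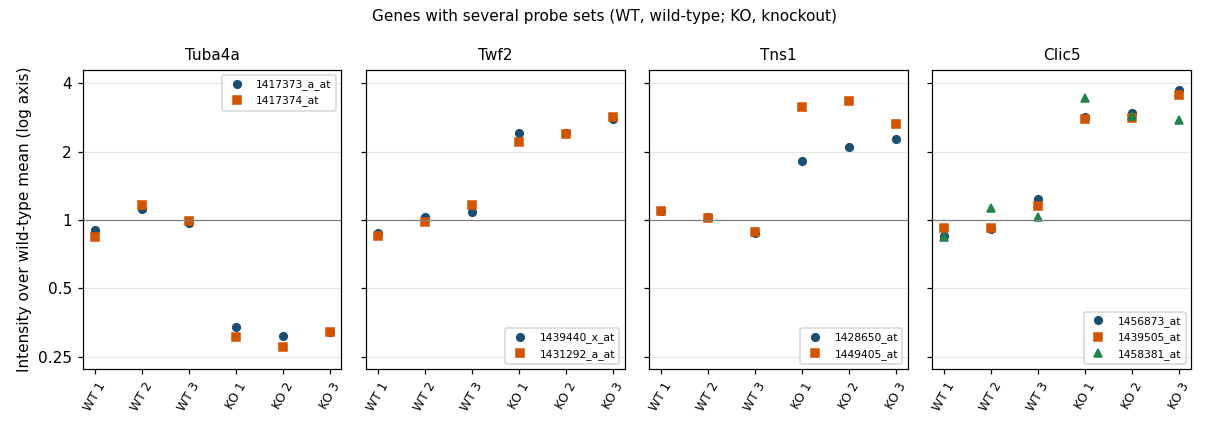
Intensity over the wild-type mean of the same probe set (y axis, log axis) on each of the 6 arrays (x axis) for the 4 genes with several probe sets, 1 symbol per probe set. The symbols coincide on most arrays for Tuba4a and Twf2, while the Tns1 symbols coincide in the wild-type and part in the knockout, where the within-array ratio was 0.254 to 0.380 against 0.219 to 0.221 as deposited (after quantile normalization, 0.242 to 0.323 against 0.227 to 0.245).

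The size of these differences depended on how the arrays are scaled, and the selected table has no unchanged genes against which the scaling could be set. On the log2 scale the median intensity over all 271 probe sets was 0.54 higher in the knockout. Of the 215 genes 66.5% were higher, so scaling and the make-up of the selected table cannot be told apart in this median. With arrays centred on their medians, every log2 difference is lower by that 0.54. All 10 genes kept their direction, which was fixed beforehand, since no difference in the table was under 1.00. They also kept it under quantile normalization. The fold between the nearest arrays of the groups was 1.66 to 3.39 over the 15 probe sets as deposited, 1.13 to 3.88 with centred arrays and 1.21 to 4.06 after quantile normalization. Under both alternatives the 4 lower genes lay further apart. After quantile normalization Tuba4a was 3.95-fold, Pfn2 3.41-fold, Dynll1 3.30-fold and Fblim1 3.24-fold lower. The higher genes moved towards 0, to 2.85-fold for Carmil1, 2.63-fold for Baiap2, 1.93-fold for Clic5, 1.59-fold for Twf2, 1.47-fold for Clip1 and 1.44-fold for Tns1. Of the 6 higher genes 3 were still at least 2-fold higher with centred arrays (Carmil1, Baiap2 and Clic5) and 2 after quantile normalization (Carmil1 and Baiap2), whereas all 4 lower genes stayed beyond 2-fold under both. Both scalings moved all 10 differences to lower values, which can only take lower genes away from 0. This contrast is therefore no measure of which direction is firmer.

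**Figure D4:**
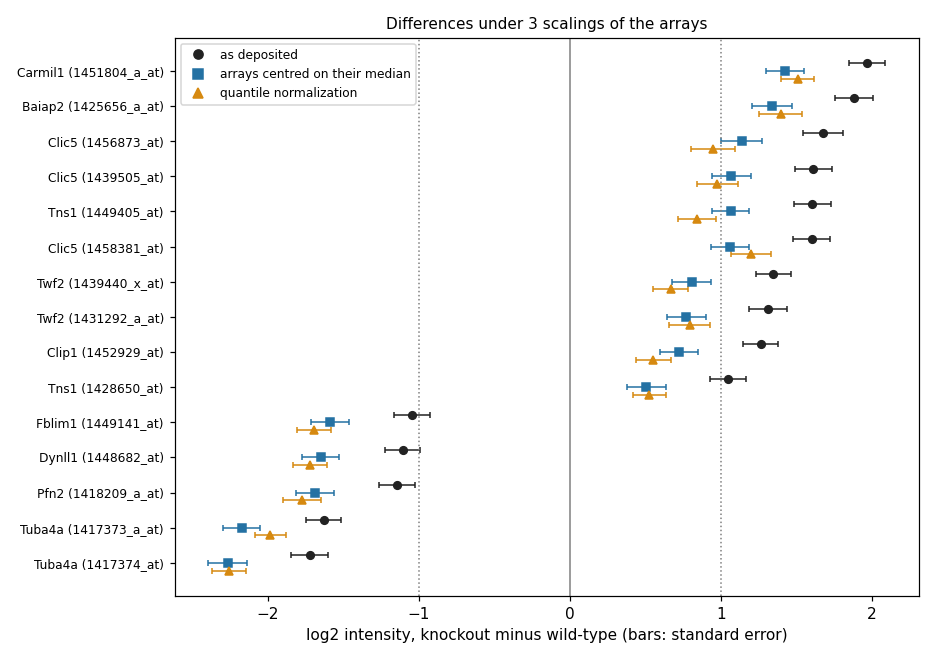
log2 difference, knockout minus wild-type (x axis), of the 15 probe sets (rows) as deposited (black circles), with arrays centred on their median (blue squares) and after quantile normalization (orange triangles), with bars for the standard error and dotted lines at 2-fold. Both alternatives move every point to the left, so that Tns1 comes to 0.51 and 0.53 on its brighter probe set and Tuba4a to -2.17 and -1.98.

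The other genes of the actin and microtubule machinery were counted in 4 lists of 176 genes in all, which hold the 10 members too. Of these 176 genes, 11 are in the table, and 1 of them is not a member. This is Synpo2l, which encodes an actin-binding protein of the Z-disc. It read 182, 226 and 199 in the wild-type and 670, 609 and 503 in the knockout (1428295_at), and was 2.93-fold higher. Its log2 difference of 1.55 became 0.95 after quantile normalization. By list, 6 of 82 actin regulators are in the table (5 higher and 1 lower), 3 of 57 genes of microtubules and motors (1 higher and 2 lower) and 2 of 28 adhesion adaptors (1 higher and 1 lower). The median log2 difference of the listed actin regulators was 1.61 and that of the microtubule genes -1.11, against 1.14 over all 215 genes. These medians and counts restate the members, which make up 5 of the 6 actin regulators and all 3 microtubule genes. Of all 215 genes 66.5% were higher, and nothing is read from the lists beside that share. None of 9 intermediate filament genes is in the table analysed here, so no statement on them is possible.

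Markers of the cell types in a ventricle were looked up in the same way, since in whole tissue fewer cells of a type and less RNA per cell cannot be told apart. Of 11 markers of ventricular cardiomyocytes only Myh7, the β-myosin heavy chain, is in the table, at 1297 to 1849 in the wild-type and 16948 to 18292 in the knockout. It was 10.8-fold higher in the knockout, and the paper counts it among the stress markers raised in the knockout hearts. Myh7 therefore gives no measure of cardiomyocyte content between the genotypes, and no other marker was there to check the labelled tissue. Of 10 fibroblast markers 2 are in the table, the collagen genes Col3a1 and Col6a3, which were 2.14-fold and 2.00-fold lower. Their summed intensity was 3224 to 3523 in the wild-type and 1607 to 1704 in the knockout. Both genes passed the 2-fold selection, so this sum is apart by construction. The other listed fibroblast markers are not in the selected table, and the sum does not stand for fibroblasts as a whole. The 6 lists for endothelial cells, smooth muscle and pericytes, epicardium, leukocytes, erythroid cells and atrial cardiomyocytes had no gene in the table. The part of a shift in cell types in the differences of the 10 genes was not tested.

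Promoters of the members were compared because genes of both directions stand side by side here. RefSeq windows of 300 bases (250 before and 50 after an annotated start, GRCm38.p6) were at hand for 8 of the 10 genes, with 2 starts for Fblim1, 9 windows in all, and none for Twf2 and Carmil1. The GC box letters GGGCGG, on either strand, occurred in 8 of the 9 windows and in 35.7% of all 32851 windows, in genes of both directions. The members' windows held 52.3% to 77.7% G and C, against a median of 52.7% over all windows. Whether the share of GC box letters goes with this was not tested. The SRF CArG box, a motif common in promoters of muscle actin genes, was in none of the 9 windows and in 1.63% of all windows. TATAAA was found for Baiap2 alone (13.6% of all windows), CATTCC in 1 of the windows of Fblim1 (14.7%), and CCAAT for Baiap2, Dynll1 and Fblim1 (37.4%), each searched on both strands. A match is a description of the letters and not of a factor's binding.

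To let a reader see these letters in genes of opposite direction, the 120 bases before the start are given for a pair of lower and a pair of higher genes, with GGGCGG (or CCGCCC) and TATAAA in capitals. They lie at chr1:75219295-75219414 on the minus strand for Tuba4a, chr5:115300991-115301110 on the minus strand for Dynll1, chr5:123684362-123684481 on the minus strand for Clip1 and chr11:119942972-119943091 on the plus strand for Baiap2.
Tuba4a (lower): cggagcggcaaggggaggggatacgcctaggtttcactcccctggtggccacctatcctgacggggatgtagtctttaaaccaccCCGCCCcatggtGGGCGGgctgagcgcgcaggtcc
Dynll1 (lower): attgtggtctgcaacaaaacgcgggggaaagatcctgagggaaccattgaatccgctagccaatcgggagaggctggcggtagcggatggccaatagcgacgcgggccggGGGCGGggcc
Clip1 (higher): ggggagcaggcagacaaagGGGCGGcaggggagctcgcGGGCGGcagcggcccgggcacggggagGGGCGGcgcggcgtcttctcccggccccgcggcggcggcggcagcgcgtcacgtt
Baiap2 (higher): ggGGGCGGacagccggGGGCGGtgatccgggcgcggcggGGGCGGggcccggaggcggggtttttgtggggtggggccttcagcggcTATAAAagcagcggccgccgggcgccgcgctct
The GC box letters stand in each of the 4 stretches, and only that of Baiap2 also holds TATAAA.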

How the data were processed

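Total RNA of neonatal ventricles was hybridised to 6 Affymetrix mouse genome arrays. Values deposited by the authors, who used GeneSpring GX, are linear intensities (30.1 to 18292). Summarization and scaling are not given in the sources used here, nor is a count of reads or another depth, and the number of arrays limits the precision. Intensities were set to log2 without an offset. Knockout minus wild-type was fitted over all 271 probe sets with limma 3.58.1 in R 4.3.3, and its standard error was moderated with eBayes. The fit was tested on simulated data. The simulated rows were not selected on a difference, so that test does not cover the standard errors of this selected table. No p is given, since the table was selected on this comparison. The platform annotation, updated by gene number through RefSeq, named 253 probe sets with 1 gene, 3 with several and 15 with none. The brightest probe set stood for a gene. All members, and listed genes that are in the table, are named. The members and lists were chosen with earlier results of these data known. Samples sharing a replicate number did not deviate together (r of -0.02, 0.01 and 0.08). Alternatives were centring, quantile normalization, an offset of 16, trended and robust eBayes, a replicate block, each array left out, the mean over probe sets, and leaving out the dimmest 25% of probe sets. Python 3.11.15 with pandas 2.3.3 was used for counts.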

Additional observations from a re-analysis of the deposited data

How the results depend on the processing

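The direction of each of the 10 genes held under the alternatives that gave it a value. Only quantile normalization could have reversed a direction. With centring it was fixed beforehand, since the shift of 0.54 is smaller than any difference in the selected table. The replicate block, the other eBayes settings and the removal of dim probe sets leave each difference as it is. An offset or leaving out 1 array cannot reverse groups that do not overlap. All probe sets of a gene had the same direction, so their mean had it too. Of the 6 genes at least 2-fold higher, 3 were left with arrays centred on their median and 2 after quantile normalization, and the 4 lower genes stayed beyond 2-fold under both. Under both, all differences moved to lower values, so the lower genes could only move away from 0. Leaving out 1 array in turn left 5 to 6 genes at least 2-fold higher and 3 to 4 lower. Tns1 came to 0.96 on the log2 scale without wild-type array 3 and to 0.98 without knockout array 3, and Fblim1 to -0.98 without knockout array 1. The mean over both probe sets of Tns1 was 1.33 in place of 1.05, and the offset of 16 moved Carmil1 to 1.70. With the replicate number as a block the differences were the same (-1.63 for Tuba4a) and the median standard error over the genes was 0.10 in place of 0.12. Whether the numbers stand for the independent experiments of the paper is not stated. Without the dimmest 25% of probe sets 8 genes were left, and Carmil1 and Baiap2 had no value. Low intensities limit the ratios of Carmil1 and Baiap2, and detection calls are not analysed here. Quantile-normalized ratios between probe sets of a gene, and gaps between nearest arrays under each scaling, were added after seeing the data. The separation of the groups in the Tns1 ratio was lost after quantile normalization (a shift of 0.31 in place of 0.56) and that in the Tuba4a ratio appeared (-0.27 in place of -0.09).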
